A study of Rattus norvegicus with 8 samples.

Results

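The Bcl2 family genes described here are Bcl2, Bcl2l1, Bcl2l2, Mcl1, Bax, Bak1, Bid, Bad, Bbc3 and Bcl2l11, chosen as the non-control spots of the array whose gene name equals one of these symbols. They make up 10 of the 35250 gene names and are carried by 18 probes on 45 of the 43379 non-control spots. RNA came from the dentate gyrus (DG) of adult ovariectomized (OVX) female Sprague-Dawley rats weighing 150 to 200 g, all of which had undergone status epilepticus (SE) after kainic acid, an agonist of glutamate receptors that evokes limbic seizures. The records give 16 mg/kg of kainic acid intraperitoneally and an end of SE with pentobarbital after 5 h. The 4 COS rats (castrated, oil, SE) received oil. The 4 CES rats (castrated, E2-replaced, SE) received 4 doses of 2 µg of estradiol (E2) benzoate at intervals of 24 h. Of these doses, 2 came before and 2 after SE. The study's methods give another dose of kainic acid, another drug to end SE and all injections before SE. They also give differing times of tissue collection, so the interval between SE and sampling is uncertain. Which of the accounts holds cannot be read from the files. Groups without SE were not analysed here, so every difference below is between OVX rats after SE with and without E2.

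The proteins of this family decide whether the outer membrane of the mitochondrion is permeabilized, the step that releases cytochrome c and starts the caspase cascade of intrinsic apoptosis. Bcl2, Bcl2l1 (Bcl-xL), Bcl2l2 (Bcl-w) and Mcl1 hold the membrane closed, Bax and Bak1 form the pores, and the BH3-only proteins Bid, Bad, Bbc3 (Puma) and Bcl2l11 (Bim) carry death signals to the other groups through a short helix, the BH3 domain. In the hippocampus the family is known for its part in the death of neurons after prolonged seizures and for its place among the genes studied in estrogen action on neuron survival.

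Sequences of 60-base probes within the coding region are shown for members whose relatedness could let a transcript reach the probe of another member, 5′ to 3′ on the coding strand as the files give them. In the first pair the capitals mark 5 codons that encode the same residues in Bcl2 and Bcl2l1, in the BH4 region that the survival proteins share, where 12 of 15 bases are identical.
Bcl2, probe A_44_P280776: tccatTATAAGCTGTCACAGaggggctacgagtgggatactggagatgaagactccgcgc
Bcl2l1, probe A_44_P548065: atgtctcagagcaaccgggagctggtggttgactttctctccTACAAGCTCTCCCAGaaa
In the second pair the capitals mark 6 codons between the BH1 and BH2 regions of Bcl2l1 and Bcl2l2, of which 5 encode the same residue, with 16 of 18 bases identical.
Bcl2l1, probe A_42_P623909: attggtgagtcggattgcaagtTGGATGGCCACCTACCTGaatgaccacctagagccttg
Bcl2l2, probe A_44_P112788: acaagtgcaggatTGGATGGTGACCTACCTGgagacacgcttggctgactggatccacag
The capitals in the Bax probe mark 5 codons of its BH3 domain, the helix through which the family members bind each other, while the Bid and Bcl2l11 probes lie downstream of that domain and carry no capitals.
Bax, probe A_43_P11800: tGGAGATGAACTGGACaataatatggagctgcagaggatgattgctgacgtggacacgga
Bid, probe A_44_P550497: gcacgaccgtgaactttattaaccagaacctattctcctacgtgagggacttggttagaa
Bcl2l11, probe A_44_P508055: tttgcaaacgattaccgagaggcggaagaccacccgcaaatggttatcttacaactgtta
Over all 142 pairs of probes of different members, the longest run of identical bases was 10. On rn4, the build of the array annotation, the Bcl2 probe lies on chromosome 13 from 12904758 to 12904817 and the Bcl2l1 probes above lie on chromosome 3 from 143178503 to 143178562 and from 143178021 to 143178080, all on the minus strand. The Bcl2l2 probe lies on the plus strand of chromosome 15 from 32984470 to 32984529, the Bid probe on the minus strand of chromosome 4 from 157297971 to 157298030, and the Bcl2l11 probe on the plus strand of chromosome 3 from 115722606 to 115722665. The files give no position for the probes of Bax and Bbc3.

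The promoters of Mcl1 and Bak1, the members with the largest differences below, are shown as the 250 bases before the start of the RefSeq gene on GRCr8, another build than that of the probes, with each match to a searched motif in capitals.
Mcl1, chr2:185907918-185908167, plus strand: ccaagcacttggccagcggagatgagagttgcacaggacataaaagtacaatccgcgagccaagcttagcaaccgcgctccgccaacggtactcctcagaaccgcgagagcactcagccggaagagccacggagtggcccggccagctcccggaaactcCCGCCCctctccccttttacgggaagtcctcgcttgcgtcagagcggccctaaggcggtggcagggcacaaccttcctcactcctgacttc
Bak1, chr20:5110975-5111224, minus strand: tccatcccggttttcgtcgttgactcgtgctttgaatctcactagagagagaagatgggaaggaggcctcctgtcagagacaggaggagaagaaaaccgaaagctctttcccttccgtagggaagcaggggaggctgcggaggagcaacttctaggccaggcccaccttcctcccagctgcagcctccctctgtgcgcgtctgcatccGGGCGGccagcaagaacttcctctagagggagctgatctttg
The motifs were searched on both strands in 11 windows of 8 members and in all 33469 windows of that length, and no match overlapped a match of another motif. The windows of Bcl2l1, which has several starts, partly overlap, so that the same site can be counted in more than one of them. The GC box GGGCGG lay in 5 of the 11 member windows, those of Bak1, Bcl2l11, Bcl2l2, Bid and Mcl1, and in 30.5% of all windows. The STAT motif TTCNNNGAA lay in 3 of the 11 member windows, of Bad and Bcl2l1, and in 7.67% of all windows. No member window held the estrogen response element GGTCANNNTGACC (0.0239% of all windows), the cAMP response element TGACGTCA (1.59%), the AP-1 motif TGANTCA (6.34%) or the E-box CACGTG (5.59%).

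Each channel of the 4 arrays carried 1 rat, with a pair of rats of the same group on each array, Cy3 for replicates 1 and 3 and Cy5 for replicates 2 and 4. A level below is the log2 of the background-subtracted signal of a gene divided by the median signal of all valid spots in the same channel. A spot was valid where its mean foreground reached 2 times the local background median. The valid share was 74.6% to 88.9% of the spots in the COS rats and 70.7% to 81.5% in the CES rats, and 20825 genes had a spot valid in all 8 rats. Over all genes, CES minus COS had a median of −0.25. When the scaling of each channel used only spots that were valid in every rat, that median was 0.14 and the calls at an adjusted p under 0.05 turned from 1195 genes higher and 5957 lower to 3384 higher and 1783 lower. After loess normalization within and Aquantile normalization between arrays the median was 0.04, with 3240 genes higher and 2201 lower. Each member is therefore also given against the all-gene median, a value on the log2 scale from which that shift is removed. Of the markers of dentate granule cells, Neurod1, Calb1 and C1ql2 were well above background in all 8 rats, while Prox1, which defines these cells, was not well above background in any rat. Because DG tissue was measured in bulk, fewer cells of a type and less RNA per cell cannot be told apart.

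Among the 9 members that were quantified, 7 were lower in CES than in COS and none was higher. At an unadjusted p under 0.05 in limma Bcl2 was also lower, and again none was higher. These were Mcl1, Bak1, Bax, Bid, Bcl2l1, Bbc3 and Bad, from both the survival and the death side of the family. Over all genes 28.6% were called lower, 5.74% higher and 34.3% in either direction by limma at an adjusted p under 0.05. The COS and CES values did not overlap for 6 of the 9 members, all lower in CES, and this held for 19.7% of all genes, with 1.55% not overlapping and higher. This and the overlaps below were read on the levels as scaled, from which the all-gene shift was not removed. Whether the groups stay apart with that shift removed was not tested. The median difference of the members was −0.71, which is −0.45 against the all-gene median. The scaling over common spots, quantile normalization, loess with Aquantile and the deposited log2 table each called only Mcl1, Bak1 and Bax lower. Each of these also called Bcl2l2, a survival member, higher. With normexp background correction only Mcl1 and Bak1 were called lower.

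**Figure D1:**
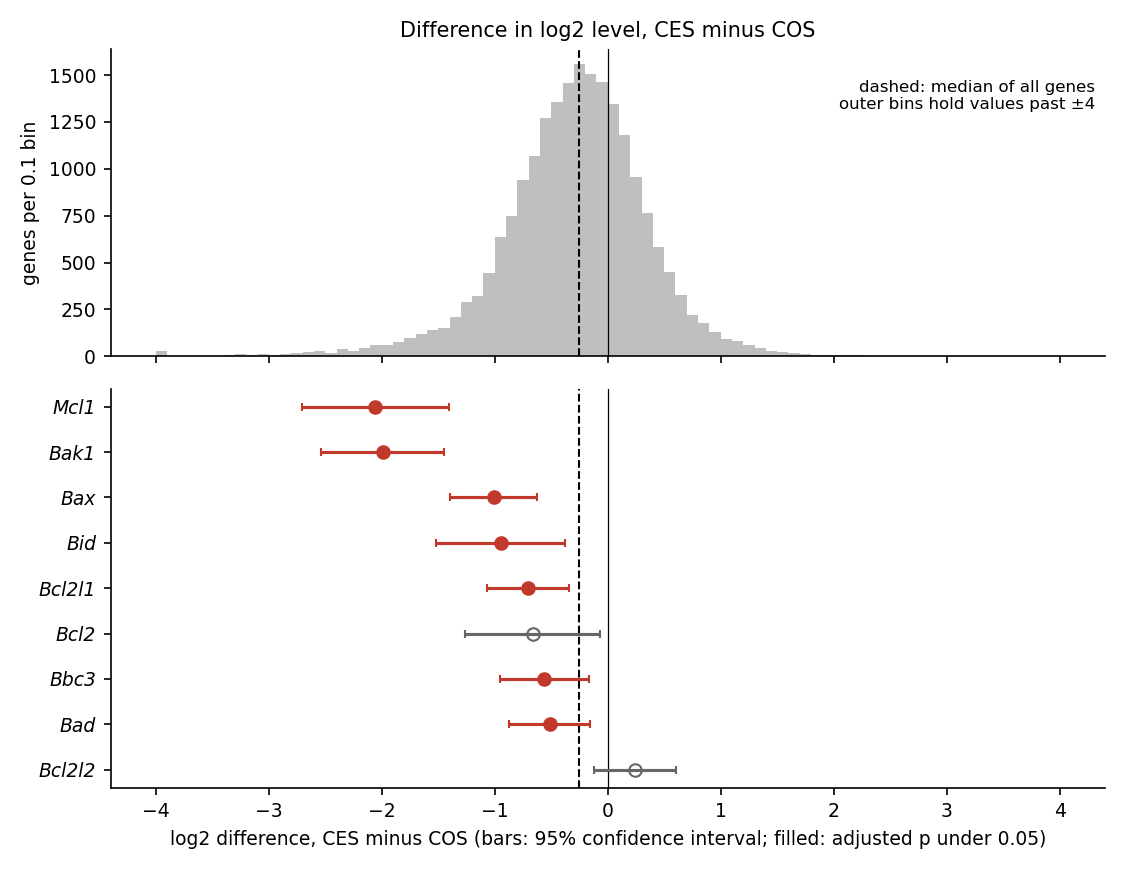
The upper panel is a histogram of the log2 difference, CES minus COS, of the 20825 quantified genes in bins of width 0.1, and the lower panel shows the 9 quantified members with their 95% confidence intervals, filled where the adjusted p was under 0.05. Mcl1 at −2.06 and Bak1 at −1.99 stand in the lower tail of all genes, while Bcl2l2 at 0.24 lies to the right of the dashed median of −0.25.

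Mcl1, a survival protein with a short half-life that holds Bak1 in check, showed the largest difference of the members. Its level was 3.73, 3.59, 4.00 and 3.37 in COS replicates 1 to 4 and 1.21, 2.49, 1.56 and 1.19 in CES replicates 1 to 4. All CES rats lay below all COS rats, and CES replicate 2 was the highest of its group. The mean was 3.67 ± 0.26 in COS and 1.61 ± 0.61 in CES (SD, n = 4 each), a difference of −2.06 with a standard error of 0.29 and a 95% confidence interval from −2.71 to −1.41 (limma, adjusted p = 0.00329). The CES mean was 24.0% of that in COS, and 1.61% of all genes had a lower difference. Against the all-gene median the difference was −1.80. It was −2.48 among the rats labeled with Cy3 and −1.64 among those labeled with Cy5. Both probes gave this result, with −2.00 for A_44_P101211 and −2.10 for A_44_P280965, which lie on the unplaced part of chromosome 2 in rn4 from 2891461 to 2891520 and from 2891685 to 2891744.

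Bcl2l1 encodes Bcl-xL, the main survival member of mature neurons. Fitted singly, 29.4% of all probes were called lower, the background for the probe values here and below. The gene value of Bcl2l1 rests on the probes A_42_P623909 and A_44_P548065 shown above, and it was 0.07, −0.05, 0.42 and −0.29 in the COS rats and −0.53, −0.84, −0.32 and −0.99 in the CES rats. The groups did not overlap, but the lowest COS rat and the highest CES rat were close to each other. The difference was −0.71 with a standard error of 0.16 (limma, adjusted p = 0.0105), and −0.45 against the all-gene median. It was −0.67 within Cy3 and −0.74 within Cy5. Taken singly, A_42_P623909 separated the groups, while with A_44_P548065 they overlapped. Another probe, A_44_P254238 on chromosome 3 from 143129343 to 143129402, was marked as an outlier by the scanner software in CES replicates 3 and 4 and did not enter. With the marks disregarded its level was 5.48, 5.86, 5.75 and 5.50 in COS and 4.46, 4.97, 4.23 and 4.23 in CES. These groups did not overlap either, and the difference of this probe was −1.18 with a standard error of 0.20 (limma, adjusted p = 0.0046). With marked spots kept the difference of the gene was −1.15 (adjusted p = 0.0049, with a range over all alternatives from 0.00273 to 0.632). The gene did not pass without COS replicate 3 (adjusted p = 0.0725) or CES replicate 1 (adjusted p = 0.0501). The remaining probe, A_43_P12577, is printed on 10 spots, and none of its 80 readings was well above background.

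Bcl2, the founding survival member, was quantified through a single dim probe, A_44_P360756 on chromosome 13 from 12903960 to 12904017. This probe was well above background in 2 COS rats and 1 CES rat. Its level was −1.22, −1.76, −1.14 and −2.11 in COS and −1.47, −2.01, −2.24 and −3.17 in CES. The groups overlapped, and CES replicate 4 was the lowest. The difference was −0.66 with a 95% confidence interval from −1.26 to −0.07 and did not pass the test over all genes (limma, adjusted p = 0.0804). When same-numbered rats were treated as a block, Bcl2 was called lower (adjusted p = 0.0429), and it was called lower without CES replicate 2 (adjusted p = 0.0107), with a range over all alternatives from 0.0107 to 0.813. Without CES replicate 3 its difference shrank to −0.39, which is −0.087 against the all-gene median, so its size rests partly on that rat. Without CES replicate 4 it was −0.30, which is −0.024 against the all-gene median. No spot of the other probe was valid in CES replicate 4, and without that rat spots of that probe entered the gene. In this value the omitted rat and the added probe cannot be told apart. The other probe, A_44_P280776, is on 10 spots, of which 36 of 40 readings were valid in COS and 21 of 40 in CES, and no spot was valid in all rats.

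Bcl2l2 encodes Bcl-w, a survival member expressed in brain and testis. It was the only quantified member whose difference was above 0, with a level of 2.89, 2.72, 3.25 and 2.66 in COS and 3.31, 2.81, 3.23 and 3.13 in CES. The groups overlapped. The difference was 0.24 with a 95% confidence interval from −0.12 to 0.60. It did not pass the test (limma, adjusted p = 0.282, with a range over all alternatives from 0.0289 to 0.901). Against the all-gene median it was 0.49, and 82.7% of all genes had a lower difference. The bright probe A_44_P550346 gave 0.25 and the dim probe A_44_P112788 gave −0.33, neither past the threshold, and the gene lay at −0.04 when both probes counted equally.

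**Figure D2:**
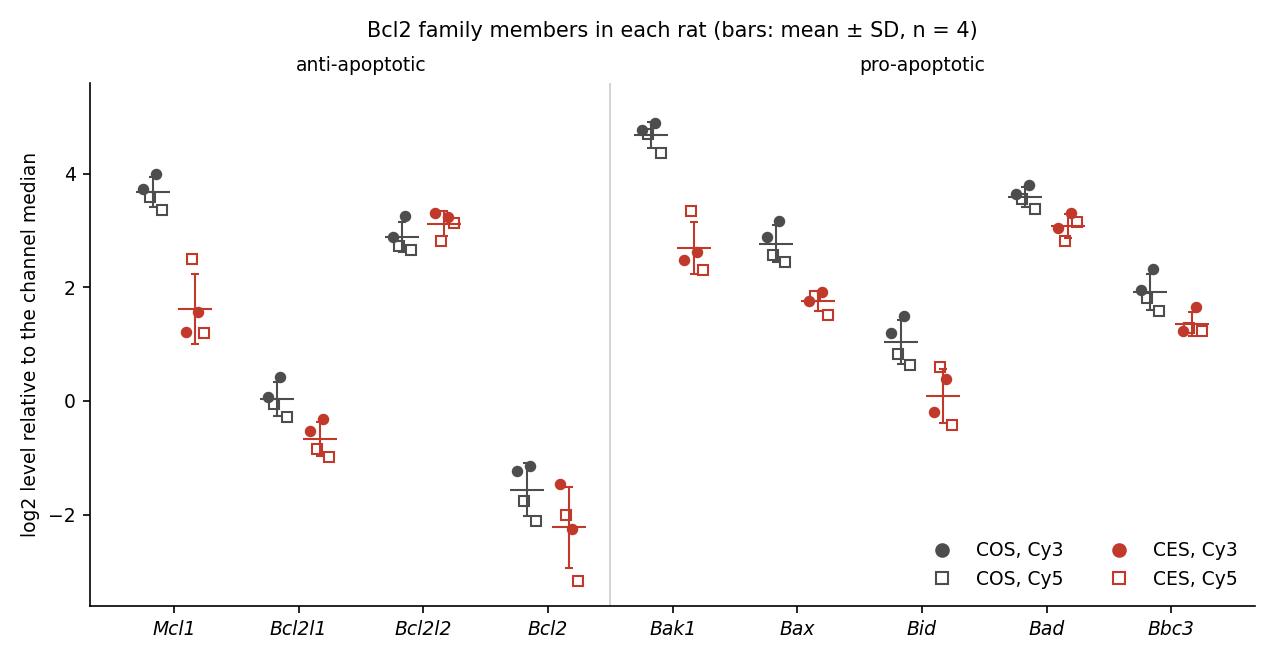
Log2 level relative to the channel median of each quantified member in each rat, COS in grey and CES in red, with circles for Cy3, squares for Cy5 and bars for the mean ± SD of 4 rats. The CES rats lie below the COS rats without overlap for Mcl1, Bak1, Bax, Bid, Bcl2l1 and Bad, and the groups overlap for Bbc3, Bcl2 and Bcl2l2.

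The pore-forming members were both lower in CES. Bak1, which sits in the outer mitochondrial membrane, had a level of 4.76, 4.70, 4.89 and 4.35 in COS and 2.48, 3.35, 2.62 and 2.30 in CES. All COS rats were above all CES rats, and CES replicate 2 was again the highest of its group. The mean was 4.68 ± 0.23 in COS and 2.69 ± 0.46 in CES (SD, n = 4 each), and the difference was −1.99 with a standard error of 0.24 (limma, adjusted p = 0.00276). The CES mean was 25.1% of the COS mean, and 1.74% of all genes had a lower difference. It was −1.74 against the all-gene median, −2.28 within Cy3 and −1.71 within Cy5. The gene has a single probe, on chromosome 20 of rn4 from 5256042 to 5256101.

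Bax, which moves from the cytosol to the mitochondrion when activated, is measured by the probe over its BH3 domain on 10 spots, 7 of which were valid and unmarked in all rats. Its level was 2.89, 2.57, 3.17 and 2.44 in COS and 1.75, 1.84, 1.92 and 1.50 in CES. The groups did not overlap, and the CES rats were closer to each other than the COS rats. The mean was 2.76 ± 0.33 in COS and 1.75 ± 0.18 in CES (SD, n = 4 each), a difference of −1.01 with a standard error of 0.17 (limma, adjusted p = 0.00416). The CES mean was 49.6% of the COS mean. The difference was −0.76 against the all-gene median, −1.19 within Cy3 and −0.83 within Cy5. It did not pass with normexp background correction (−0.77, adjusted p = 0.241, with a range over all alternatives from 0.000608 to 0.34).

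Among the BH3-only members, Bid, which caspase-8 cleaves to link death receptors with the mitochondrion, had the largest difference. Its level was 1.20, 0.83, 1.50 and 0.64 in COS and −0.19, 0.60, 0.38 and −0.42 in CES. The groups did not overlap, with COS replicate 4 just above CES replicate 2. The difference was −0.95 with a standard error of 0.26 (limma, adjusted p = 0.0194) and −0.69 against the all-gene median. It was −1.25 within Cy3 and −0.64 within Cy5. The probe shown above and A_44_P880146, on chromosome 4 from 157295949 to 157296008, both gave −0.95. With A_44_P880146 alone, CES replicate 2 lay just above COS replicate 4, so the groups overlapped. Bid did not pass without COS replicate 1 (adjusted p = 0.0585), COS replicate 3 (0.133) or CES replicate 1 (0.0899).

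Bad, which binds Bcl-xL unless it is phosphorylated by survival kinases, had a level of 3.65, 3.54, 3.79 and 3.37 in COS and 3.05, 2.81, 3.30 and 3.15 in CES. The groups did not overlap, although COS replicate 4 and CES replicate 3 were close. The difference was −0.51 with a standard error of 0.16 (limma, adjusted p = 0.0344) and −0.26 against the all-gene median. It came from the bright probe A_44_P991565, on chromosome 1 from 209626000 to 209626059, at −0.56 (adjusted p = 0.0279). The probe A_44_P199624, whose 60 bases span 496 bases of chromosome 1 from 209617478 to 209617973, gave −0.17 (adjusted p = 0.493), and with both probes counted equally Bad did not pass (adjusted p = 0.107, with a range over all alternatives from 0.0112 to 0.788). It passed only when CES replicate 3 or 4 was the rat left out, and otherwise the adjusted p rose to as much as 0.133.

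Bbc3 encodes Puma, which binds all the survival members. Its level was 1.95, 1.81, 2.33 and 1.58 in COS and 1.23, 1.28, 1.66 and 1.23 in CES. The groups overlapped through CES replicate 3, which lay above COS replicate 4. The difference was −0.56 with a standard error of 0.18 (limma, adjusted p = 0.0338) and −0.31 against the all-gene median, with −0.69 within Cy3 and −0.44 within Cy5. It did not pass when any COS rat or CES replicate 1 was left out, with an adjusted p of up to 0.158.

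Bcl2l11 encodes Bim, which likewise binds all the survival members. It was not quantified, because its probe was valid in 3 COS rats and 1 CES rat and not well above background in any rat. Its foreground was 1.80, 2.03, 2.12 and 2.11 times the local background in COS and 2.44, 1.68, 1.98 and 1.43 times in CES. Both groups thus lay at the limit of detection, and a difference was not measurable.

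**Figure D3:**
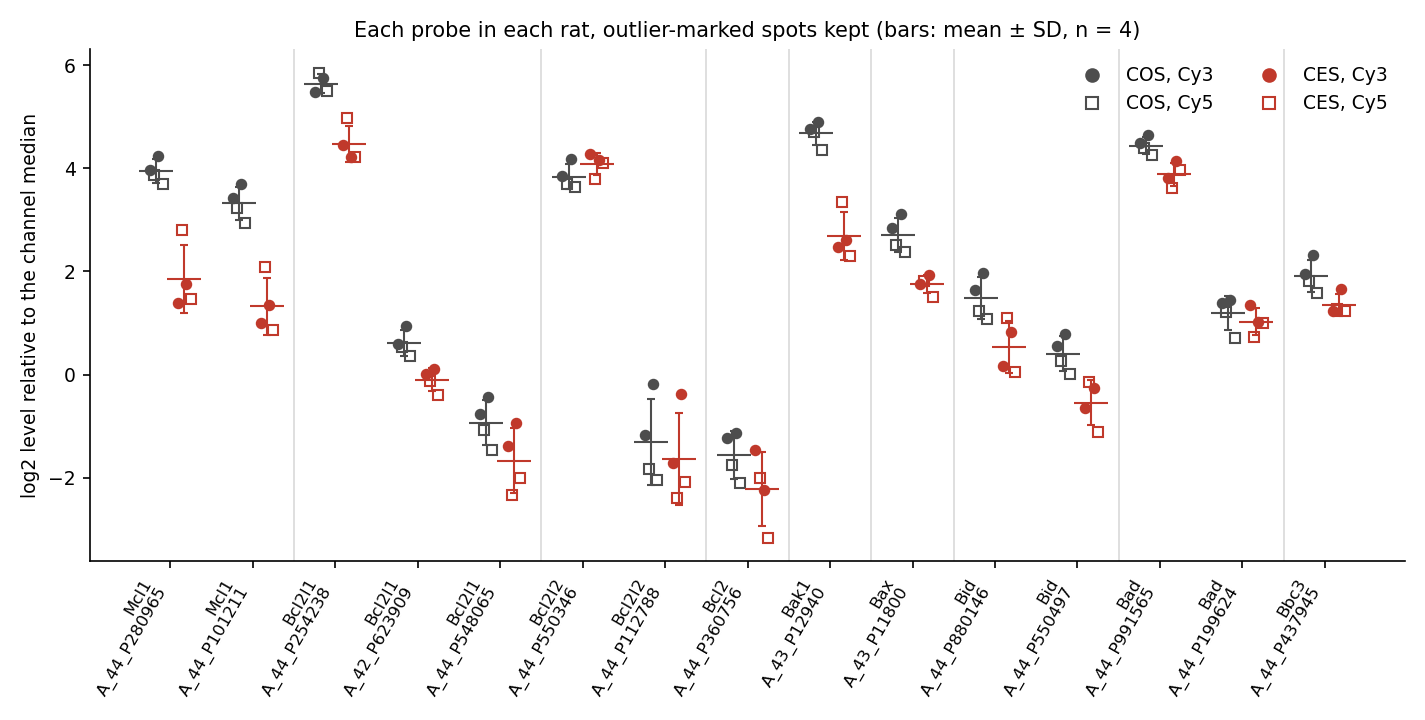
Log2 level relative to the channel median for each probe that was valid in all 8 rats, here with the outlier-marked spots kept, COS in grey and CES in red, with circles for Cy3, squares for Cy5 and bars for the mean ± SD of 4 rats. The probes of Mcl1 (−2.00 and −2.10) and of Bid (both −0.95) gave like differences, while those of Bad (−0.56 and −0.17) and Bcl2l2 (0.25 and −0.33) did not.

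Pairs of members whose proteins bind each other were compared within each rat, a difference that no scaling of a whole channel can shift. For Bak1 minus Mcl1, the effector and its inhibitor, the within-rat difference on the log2 scale was 1.04, 1.11, 0.89 and 0.99 in COS and 1.27, 0.85, 1.06 and 1.11 in CES. The groups overlapped, with means of 1.01 ± 0.09 and 1.07 ± 0.17 (SD, n = 4 each), which differed by 0.07 (exact permutation test, two-sided, p = 0.543). For Bax minus Bcl2 it was 4.11, 4.33, 4.30 and 4.55 in COS and 3.22, 3.85, 4.16 and 4.68 in CES. The groups overlapped again and differed by −0.35 (exact permutation test, two-sided, p = 0.343), with a spread in CES of 0.61 against 0.18 in COS (SD). Adjusted over these 2 pairs both p were 0.543 by the exact permutation test, and the smallest p that 4 against 4 rats allow is 0.0286. Since the levels come from different probes, only the change between groups can be read from them, not which member was more abundant.

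The standing of the members against the median of all genes was followed through 21 alternatives in background correction, normalization, filter, probes, dye and omitted rats. The other 6 alternatives, which change only the model or multiply a whole channel, leave this value as it is by construction and are not counted. The relative difference of Mcl1 lay between −2.17 and −1.43 and that of Bak1 between −1.99 and −1.50. Bax lay between −0.89 and −0.59, Bid between −0.96 and −0.42 and Bcl2l1 between −0.90 and −0.23. Each of the 8 members below the median of all genes stayed below it in each of these alternatives that quantified it, and Bcl2l2 stayed above it, between 0.22 and 0.60. The calls were less stable than these directions. Of the 27 alternatives, Mcl1 and Bak1 lost the call in 2, within Cy5 alone and by the methods' t-test adjusted over all genes. Bax also lost it with normexp. Bcl2l1 lost it in 11, Bid in 12, Bbc3 in 16 and Bad in 19. Bcl2l2, not called in the main setting, was called higher in 4. Bcl2, likewise not called there and quantified in 25 alternatives, was called lower in 2. Without COS replicate 3, and likewise without CES replicate 1, only Mcl1, Bak1 and Bax were called, and without COS replicate 1 these 3 and Bcl2l1 were.

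**Figure D4:**
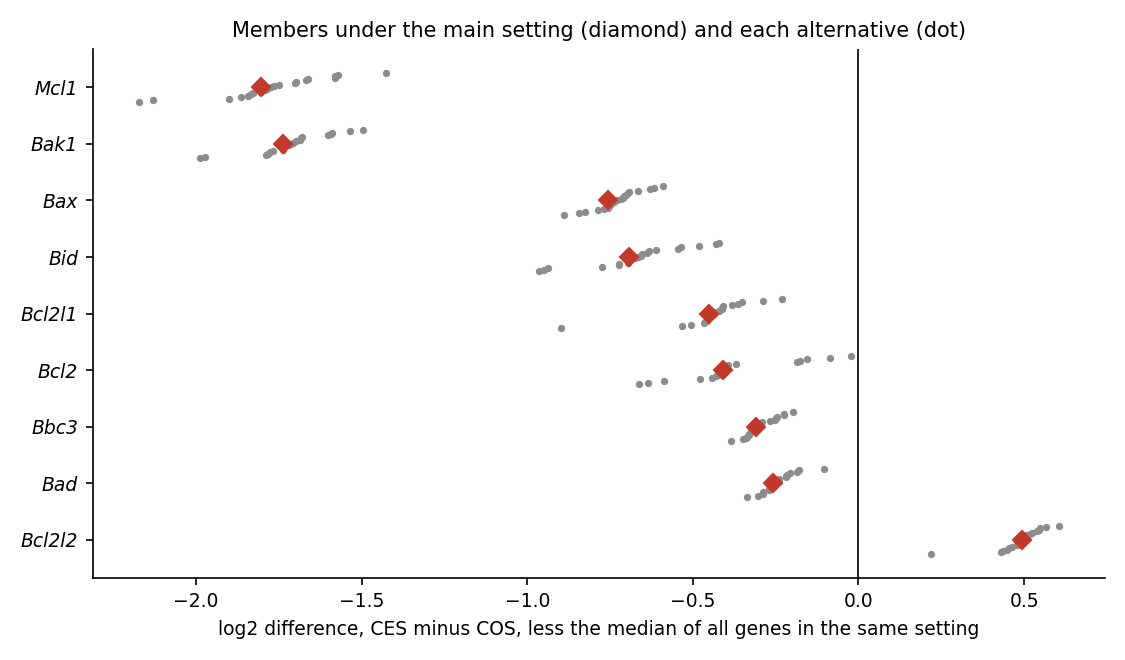
Difference in log2 level, CES minus COS, of each quantified member less the median of all genes in the same setting, with a diamond for the main setting and a dot for each of the 21 alternatives that can move this value. Mcl1 ranges from −2.17 to −1.43 and Bak1 from −1.99 to −1.50, apart from the other members, and Bcl2l2 alone lies right of 0, from 0.22 to 0.60.

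The genes whose centred levels lay nearest to those of Mcl1 over the 8 rats were Tmod3, TC582380 and Map2k3, with root mean square differences of 0.07, 0.08 and 0.09 on the log2 scale. Tmod3, a tropomodulin that caps actin filaments, differed by −2.16, TC582380 by −2.04 and Map2k3, a kinase upstream of p38, by −2.06. Nearest to Bcl2 were TC595276, Ap4m1 and LOC100364757, with root mean square differences of 0.10 each and differences of −0.69, −0.70 and −0.81. These values describe likeness over 8 rats and were not tested.

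The rest of the pathway was read from 3 lists. Of 12 further Bcl2 family genes, 9 were on the array under the listed symbol and 7 were quantified, of which 1 was higher and 2 lower in CES, beside 28.6% lower and 5.74% higher among all genes. Hrk (Harakiri), a BH3-only gene of neurons, was higher, with 1.38 ± 0.29 in COS and 2.71 ± 0.58 in CES (SD, n = 4 each), without overlap (difference 1.32, limma adjusted p = 0.0041). Bcl2a1, a survival member of blood cells and an NF-kappa-B target, was lower, with a difference of −1.95 (adjusted p = 0.0044), and its probe was marked well above background in 4 rats of COS and 2 of CES. Bcl2l15 differed by −0.74 (adjusted p = 0.0219) with overlapping groups and did not pass without COS replicate 3 or CES replicate 1. The median of the 7 was −0.15, against −0.25 over all genes.

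Of 25 genes of mitochondrial apoptosis, 22 were quantified, with 8 lower and 0 higher in CES (0 higher also at an unadjusted p under 0.05 in limma), against 28.6% lower and 5.74% higher over all genes. Their median was −0.36, which is −0.10 against the all-gene median. With loess and Aquantile 5 were lower and 4 higher, and with quantile normalization, the scaling over common spots or the log2 values as deposited 5 were lower and 3 higher. Casp6, an effector caspase, differed by −1.26 (adjusted p = 0.0048). The inhibitors of apoptosis Birc2 and Birc3 were also lower, by −1.74 (adjusted p = 0.0029) and −2.12 (adjusted p = 0.0036). Opa1, which shapes the inner membrane, differed by −0.86 (adjusted p = 0.0151). Cytochrome c (Cycs), Apaf1 and the voltage-dependent anion channels Vdac1, Vdac2 and Vdac3 did not pass the test. Opa1 did not pass without COS replicate 3 or without CES replicate 1.

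Of 25 regulators known to act on the members, 20 were quantified, with 11 lower and 0 higher in CES (0 higher also at an unadjusted p under 0.05), against 28.6% lower and 5.74% higher over all genes. Their median was −0.76, which is −0.50 against the all-gene median. The regulators called higher were 2 with loess and Aquantile, 1 with quantile normalization, 3 with the scaling over common spots and 2 in the deposited table. In the same order, 9, 8, 8 and 8 regulators were called lower. Myc, which sensitizes cells to death through Bim and Bax, had the largest difference, −2.68, from 4.17 ± 0.35 in COS to 1.50 ± 0.89 in CES (SD, n = 4 each), without overlap (limma adjusted p = 0.0033). Stat3, an activator of Mcl1, differed by −2.07 (adjusted p = 0.0045) and Jun, which induces BH3-only genes in neurons, by −1.50 (adjusted p = 0.0042). Nfkb1, a subunit of NF-kappa-B, differed by −1.25 (adjusted p = 0.0057) and Atf4, a factor of the stress response, by −1.18 (adjusted p = 0.0053). The estrogen receptor genes Esr1 and Esr2 were near background, each marked well above background in 0 rats of COS and 2 of CES. Esr1 was not quantified. Without COS replicate 3, Stat3, Nfkb1 and Atf4 did not pass, and the counts of lower genes fell to 3 for mitochondrial apoptosis, 2 for the regulators and 1 for the further family genes.

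**Figure D5:**
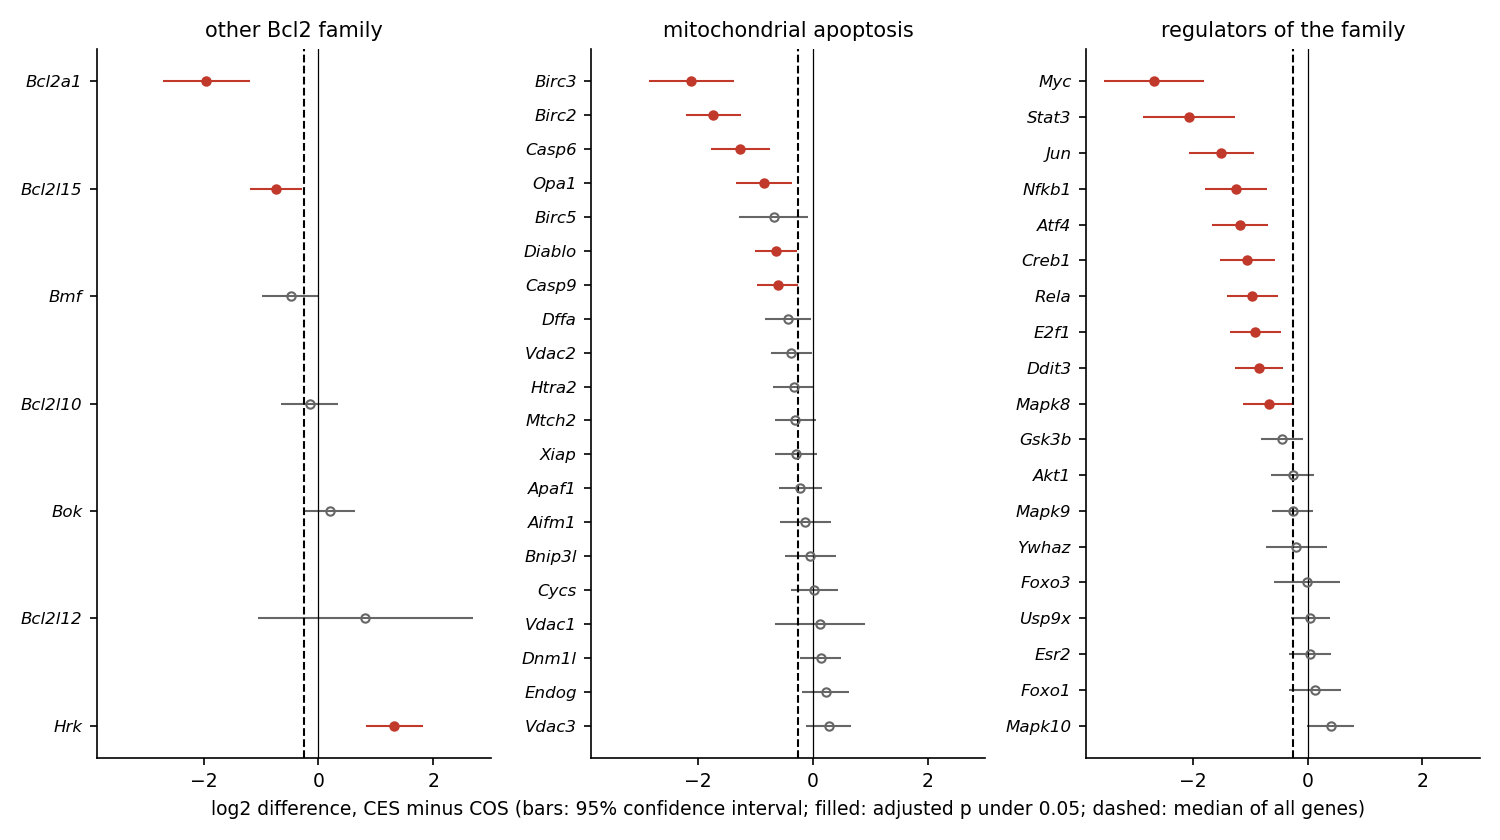
Log2 difference, CES minus COS, with 95% confidence intervals for quantified genes of the 3 lists, filled where the adjusted p was under 0.05, with the median of all genes dashed. Of the genes drawn, 6 of 20 in the mitochondrial apoptosis list and 10 of 19 regulators are filled, all left of the dashed line, and Hrk at 1.32 is the only filled gene to the right of 0.

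Some markers of other cell types were lower in CES together with the members, while others were higher or not called. Of 6 markers of microglia and macrophages, 3 were lower in CES, namely Cd68 (−2.19), Itgam (−1.92) and Csf1r (−0.92), none was higher, and none was at 0. Their summed linear level relative to the channel median was 30.2 to 47.0 in the COS rats and 16.9 to 24.8 in the CES rats. Of 5 astrocyte markers, Gjb6 (2.27) and Aldh1l1 (1.23) were higher, and Gfap was lower in all CES than in all COS rats without passing the test (−1.22, −0.97 against the all-gene median, limma adjusted p = 0.0531), with summed levels of 68.3 to 83.1 in COS and 52.1 to 94.4 in CES. Of 6 markers of dentate granule cells, 5 were quantified, with Neurod1 higher and C1ql2, Dsp and Tdo2 lower, the last not well above background in any rat, and summed levels of 16.3 to 29.4 in COS and 18.8 to 25.2 in CES. Of 5 markers of other neurons, Wfs1 was higher and Sst lower, with summed levels of 167 to 317 in COS and 69.4 to 142 in CES. Because Sst had the highest level of the 5 (mean log2 level 7.54 in COS and 5.94 in CES), these sums follow mainly that gene. Flt1 and Tek were lower of 3 quantified endothelial markers, with summed levels of 16.1 to 21.0 in COS and 11.9 to 16.9 in CES, and none of 5 oligodendrocyte markers was called (201 to 372 in COS, 279 to 419 in CES). The 2 quantified choroid plexus markers were not called and summed to 12.7 to 605 in COS and 15.1 to 190 in CES. The part of these cell types in the differences of the members was not tested.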

How the data were processed

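The authors deposited, per spot and channel, the intensity of the foreground and local background from Agilent Feature Extraction 10.7.3.1 and a table of log2 values, which equals the log2 of each channel's median signal less background relative to its median. From the mean intensity less the background median, valid spots (at least 2 times background) were scaled to the median of all valid spots of the channel. Spots that the software marked as outliers in any rat, 1593 in all, did not enter a gene. Spots of a gene valid in all 8 rats were averaged and taken to log2. No spot was saturated.

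Differences between CES and COS were fitted in limma 3.58.1 (R 4.3.3) with dye as a fixed term and array, which is nested in the group, as a random block (duplicateCorrelation with statmod 1.5.0). Two-sided p were adjusted over the 20825 genes by Benjamini-Hochberg at a threshold of 0.05. The median standard error was 0.20, and the number of arrays limits the precision. Tested on simulated data of this layout with 20825 genes, the fit recovered 92% of 100 genes changed by 2 on the log2 scale. It recovered 51% of 100 changed by 1, with 10 false calls among 153. The simulation had no array effect and no channel shift, and it changed far fewer genes than the 34.3% called in the data. Its rates therefore cannot be carried over to these data. Same-numbered rats deviated together (r from 0.21 to 0.35) but share a dye, and with the dye removed r lay between −0.28 and 0.09.

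Members and lists were chosen with earlier results of these data known. Genes named singly are the members with their probes, up to 6 called genes a list by adjusted p (some list genes enter the counts but are not reported here), and the 3 genes nearest to Bcl2 and to Mcl1. Names and promoters came from RefSeq (GRCr8), with 17512 of 41012 probes named through it. Python 3.11.15, pandas 2.3.3, Biopython 1.88 and matplotlib 3.10.9 were used.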

Additional observations from a re-analysis of the deposited data

Results flagged for a closer look

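Of 22 groups of 4 levels examined for a rat far from the others, 1 was flagged, and chance flags about 1 in 20 such groups. The level of Bbc3 in CES replicate 3, at 1.66, stood apart from the other CES rats, with a gap to the nearest of them of 0.899 of the range of the group.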

How the results depend on the processing

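The main setting called 7 members lower and 0 higher, with a member median of −0.71. Normexp background correction left 2 members lower (Mcl1 and Bak1) with a median of −0.43, 132 genes higher and 479 lower, and 0, 3 and 3 lower genes among the further family, mitochondrial apoptosis and regulator lists. Loess with Aquantile gave 3 members lower and 1 higher with a median of −0.19, 3240 genes higher and 2201 lower, lists with 1 further family gene and 5 mitochondrial genes lower, and 4 mitochondrial genes and 2 regulators higher. Quantile normalization gave 3 members lower and 1 higher with a median of −0.42, 3023 genes higher and 2257 lower, 1 and 5 genes lower in the first lists, and 3 mitochondrial genes and 1 regulator higher. The scaling over common spots gave 3 members lower and 1 higher with a median of −0.31, 3384 genes higher and 1783 lower, 1 and 5 genes lower in the first lists, and 3 mitochondrial genes and 3 regulators higher. The deposited log2 table gave 3 members lower and 1 higher with a median of −0.30, 3213 genes higher and 1927 lower, 1 and 5 genes lower in the first lists, and 3 mitochondrial genes and 2 regulators higher. Regulators called lower were 9 with loess and Aquantile and 8 each with quantile normalization, the scaling over common spots and the deposited table. Without a filter on valid spots 3 members, 1 further family gene and 3797 genes were lower and 562 higher, and with the limit at 3 times background 4 members, 1 further family gene and 2811 genes were lower. Only spots well above background left 0 further family genes lower. Within Cy3, 4 members were lower and 0 higher, beside 4428 genes lower and 779 higher over all genes. Within Cy5 (2 against 2 rats, limma), 0 members and 0 genes of each list were called, with 0 genes higher and 2 lower in all. The methods' t-test called 0 genes in either direction, 0 members and 0 genes of each list after adjustment over all genes. Before adjustment it passed 5909 genes at p under 0.05 and limma passed 9425. The study's own rule corrects p only for redundant spots of a gene and adds a fold-change cut-off for each gene. That rule was not applied here. With outlier-marked spots kept the member median was −0.95 and 1 mitochondrial gene was higher, and with the processed signal the median was −0.95. Keeping these spots, leaving them out of the scaling too and counting each probe once were chosen after seeing the data.

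The within-rat difference of Bak1 minus Mcl1 turned in sign with normexp (−0.013), loess with Aquantile (−0.032), the processed signal (−0.012) and within Cy5 (−0.068), and that of Bax minus Bcl2 came to −0.44 with loess and Aquantile (exact permutation test, p = 0.0286). Without CES replicate 4 spots of the other Bcl2 probe also entered, which gave the lowest of the values of Bax minus Bcl2 that follow. With rats left out in turn the within-rat difference of Bak1 minus Mcl1 lay between −0.00070 and 0.14. That of Bax minus Bcl2 lay between −0.82 and −0.09. The counts then ran from 3 to 7 members lower, 1 to 2 further family genes, 3 to 10 mitochondrial genes and 2 to 12 regulators lower, 0 to 1 regulators higher, and the member median from −0.91 to −0.64. Over all genes they ran from 275 to 1796 higher and from 1090 to 7021 lower, with 1090 lower without COS replicate 3, 2544 without CES replicate 1, 3625 without COS replicate 1 and 3947 without COS replicate 2. With the replicate number as a block 8 members were lower, beside 6521 genes lower over all genes. Bcl2 was the member added (limma, adjusted p = 0.0429), and no other member changed its call. The causes of these changes were not tested. Dim probes limit what can be said of Bcl2 and Bcl2l11.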
